A study of Homo sapiens with 12 samples.

Results

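RNA levels were examined for 10 genes that encode enzymes of serine, asparagine, proline, cysteine and one-carbon synthesis: PHGDH, PSAT1, PSPH, SHMT2, MTHFD2, ALDH1L2, ALDH18A1, PYCR1, ASNS and CTH. They were chosen by gene symbol, as enzymes of connected pathways, from 58735 annotated genes. The RNA came from 2 human ovarian tumor lines, labelled KGN (derived from an adult-type granulosa cell tumor) and COV434 (described by the study as juvenile-type), both given as wild type. Each line was sequenced untreated and after 72 h with 77-39, described by the study as a selective inhibitor of SIRT3, the mitochondrial deacetylase, with 3 libraries in each of the 4 groups. The labelled dose was 10 µm/ml, a unit that is not a standard one, and the same dose text stands on the untreated libraries, whose status was taken from their titles. No label says that the libraries of a group came from separate cultures, so p-values measure only the spread between these libraries. Each line is a single tumor-derived culture and not a tissue, and in such bulk RNA fewer cells of a type and less RNA per cell cannot be told apart.

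The pathways meet at serine. PHGDH oxidizes a glycolytic intermediate, PSAT1 adds the amino group from glutamate and PSPH removes the phosphate to release serine. SHMT2 then splits serine into glycine inside mitochondria and hands its side-chain carbon to folate. MTHFD2 and ALDH1L2 oxidize that folate-bound carbon further in the same compartment, while MTHFD1 and SHMT1 handle it in the cytosol for the synthesis of purines and thymidylate. ALDH18A1 and PYCR1 make proline from glutamate in mitochondria, ASNS makes asparagine from aspartate, and CTH releases cysteine at the end of transsulfuration. Many of these genes are known targets of ATF4, the transcription factor of the amino acid response, which binds the C/EBP-ATF response element together with a C/EBP partner. The proliferation of cells and their demand for nucleotides are also known to draw on the folate enzymes.

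The start-site regions of 4 of the genes are shown because ASNS alone among the matched members held the C/EBP-ATF response element, and because several of the results on treatment concern PHGDH, PSAT1 and MTHFD2. Each run covers 250 bases before and 50 bases after an annotated start, read along the gene, from RefSeq on GRCh38.p14. Capitals mark matches to TGATGNAA (the C/EBP-ATF response element) or CCAAT (the CCAAT box), searched on both strands.
ASNS, chr7:97872359-97872658, minus strand: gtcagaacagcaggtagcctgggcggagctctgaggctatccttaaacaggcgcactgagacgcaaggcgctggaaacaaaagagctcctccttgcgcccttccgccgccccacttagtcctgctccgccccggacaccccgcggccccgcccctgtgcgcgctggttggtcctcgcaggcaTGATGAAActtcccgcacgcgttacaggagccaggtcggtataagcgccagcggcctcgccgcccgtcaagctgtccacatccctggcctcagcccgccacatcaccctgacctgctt
PHGDH, chr1:119711684-119711983, plus strand: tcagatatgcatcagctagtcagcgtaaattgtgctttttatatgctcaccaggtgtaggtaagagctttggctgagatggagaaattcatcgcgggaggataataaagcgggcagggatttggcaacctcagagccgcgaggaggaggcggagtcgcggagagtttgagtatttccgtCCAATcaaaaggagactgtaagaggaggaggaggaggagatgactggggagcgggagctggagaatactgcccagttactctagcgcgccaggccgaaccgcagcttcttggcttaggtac
PSAT1, chr9:78296875-78297174, plus strand: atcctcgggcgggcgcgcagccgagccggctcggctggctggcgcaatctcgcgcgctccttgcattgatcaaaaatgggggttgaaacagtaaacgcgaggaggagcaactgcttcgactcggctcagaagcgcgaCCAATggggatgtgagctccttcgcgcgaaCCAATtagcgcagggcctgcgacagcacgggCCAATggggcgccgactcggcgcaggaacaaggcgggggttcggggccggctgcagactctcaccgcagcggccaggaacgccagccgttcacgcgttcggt
MTHFD2, chr2:74198365-74198664, plus strand: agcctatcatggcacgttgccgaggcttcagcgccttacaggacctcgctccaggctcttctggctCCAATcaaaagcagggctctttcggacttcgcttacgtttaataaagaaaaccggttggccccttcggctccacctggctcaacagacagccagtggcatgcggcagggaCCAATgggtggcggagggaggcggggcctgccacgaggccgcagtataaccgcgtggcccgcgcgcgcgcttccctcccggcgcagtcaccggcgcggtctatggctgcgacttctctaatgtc

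RefSeq windows were matched for 6 of the 10 genes, with 7 windows in all because ASNS has more than 1 annotated start. PSPH, SHMT2, PYCR1 and ALDH1L2 were not matched. The C/EBP-ATF response element was in 3.62% of 35116 promoter windows of the same length and in 1 of the 6 matched members, at 68 bases before the start of ASNS in the window shown. The CCAAT box was in 34.6% of all windows and in 4 matched members, CTH included. It occurred at 1 position in PHGDH, at 2 in MTHFD2 and at 3 in PSAT1, where the matches began 113, 83 and 52 bases before the start. The E-box CACGTG, which reads the same on both strands, was in 7.26% of all windows and in 1 member, ALDH18A1. These are matches of letters, and binding at them was not measured here.

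Recovered reads on genes ranged from 15547851 to 18280415 per library. Libraries of a group were closer to each other in KGN than in COV434, with a chi-square per gene of 2.36 to 8.36 against 15.6 to 89.9. FOXL2 and SMARCA2 ran against the line labels, and other markers did not all go the same way. FOXL2, the granulosa transcription factor that KGN is known to carry in mutant form, was at most 0.0195 FPKM (fragments per kilobase of gene length, scaled by library size) in the 6 libraries labelled KGN and 11.5 to 14.0 FPKM in the 6 labelled COV434. SMARCA2, which COV434 is known to lack together with SMARCA4, was at most 0.0087 FPKM in the libraries labelled KGN and 4.51 to 6.48 FPKM in those labelled COV434. SMARCA4 was at 2.25 to 2.60 FPKM in the former and 6.51 to 12.6 FPKM in the latter. WT1, another gene of granulosa cells, was at 45.9 to 61.4 FPKM in all libraries labelled KGN and at 0 in all labelled COV434. With WT1 included, the 11 granulosa markers summed to 51.7 to 67.6 FPKM in the libraries labelled KGN, with 3 to 5 genes at 0. Most of that sum was WT1. In the libraries labelled COV434 the sum was 29.4 to 34.3 FPKM, with 4 to 5 at 0. Of 5 granulosa markers averaging 1 FPKM or more over the untreated libraries, WT1 was higher in KGN and 4 were lower, FOXL2 among them. All 5 had an adjusted p under 0.05 by limma, as did 69% of all genes. WT1, FOXL2 and INHBB passed that filter only through the line where they were high, so their calls add no support. AMH, INHA and INHBB averaged 4.55, 1.06 and 0.0056 FPKM in untreated KGN and 8.24, 4.75 and 6.95 FPKM in untreated COV434. Lines are therefore named below as labelled. The summed level of 6 retina markers, a tissue named in the labels' extraction text, was at most 0.261 FPKM. The summed level of 6 proliferation genes was 244 to 252 FPKM in untreated and 158 to 172 FPKM in treated libraries labelled KGN, and 439 to 537 against 422 to 478 FPKM in COV434. The part of proliferation in the results below was not tested.

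PSAT1 was the highest of the 10 genes in all 4 groups and ASNS or ALDH1L2 the lowest. In untreated KGN the order of FPKM levels, which are per gene length, was PSAT1, MTHFD2, PYCR1, ALDH18A1, PHGDH, SHMT2, PSPH, CTH, ALDH1L2 and ASNS, and no neighbours in it overlapped. In untreated COV434 the order was PSAT1, PYCR1, SHMT2, CTH, PSPH, ALDH18A1, MTHFD2, PHGDH, ASNS and ALDH1L2, and from PYCR1 down to PHGDH each gene overlapped the next, so that part of the order is not beyond the spread. The table assigns PHGDH a length of 9217 bases and PSAT1 a length of 2188 bases, over all annotated exons, so FPKM understates a gene expressed from a short transcript of a long model.

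**Figure D1:**
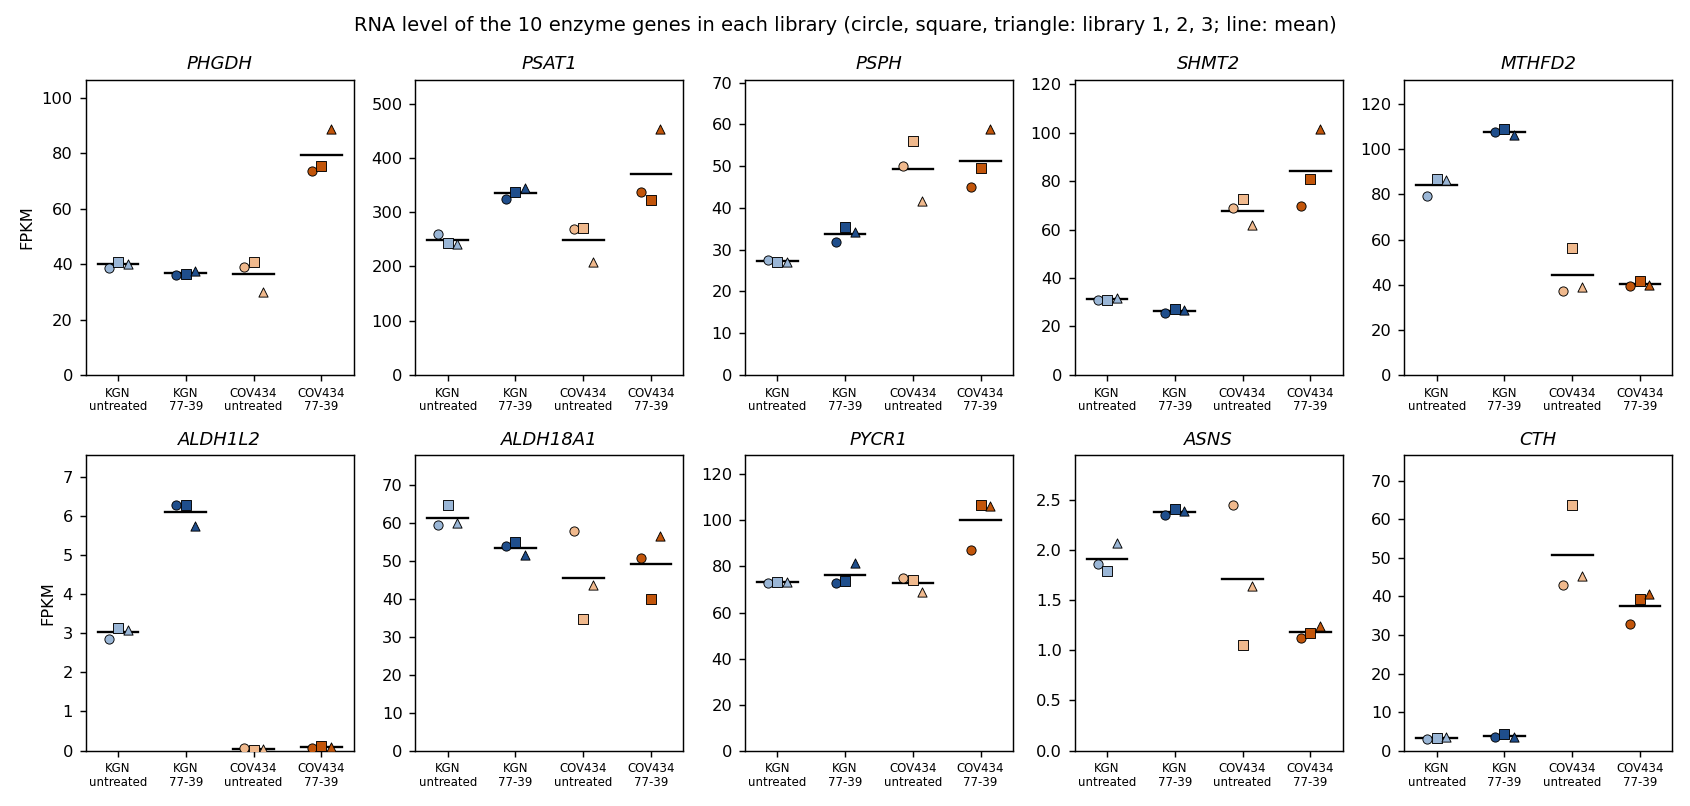
FPKM of each of the 10 genes in the 12 libraries, on linear axes that start at 0 and differ between panels, with a symbol per library and a line at the group mean. PHGDH was at 73.8 FPKM or more in all treated libraries labelled COV434 and at 40.7 FPKM or less in the other 9 libraries, while CTH and ALDH1L2 were set apart mainly by line.

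Untreated, 5 of the 10 genes were called between the lines, while the means of PSAT1 and PYCR1 were close. In a limma fit of the 6 untreated libraries, with p-values adjusted over all 13098 genes tested, 2 members were higher in the libraries labelled KGN and 3 were lower. ALDH1L2, 1 of the 2 higher, passed the filter only through the KGN libraries, where it was high, so its call adds no support. Across all genes 69% passed the same threshold, 32.6% higher and 36.4% lower, so a call here is the common case. PSAT1 averaged 248 ± 10.0 FPKM in KGN and 249 ± 36.2 in COV434 (SD, n = 3 each), with a 95% interval of -0.32 to 0.33 for the log2 difference. PYCR1 averaged 73.2 ± 0.132 and 72.7 ± 3.20 FPKM (interval -0.20 to 0.22). PHGDH averaged 39.9 ± 1.01 and 36.6 ± 5.68 FPKM, a log2 difference of 0.13 with a 95% interval of -0.18 to 0.45. Neither these 3 genes nor ASNS and ALDH18A1 passed the threshold, and for ALDH18A1 the log2 difference was 0.46 (adjusted p = 0.0619). For 3 of these 5 the call depended on the processing. The log2 difference of PSAT1 was not called in any of 14 alternatives but reached 0.396. With quantile normalization PHGDH (0.59, adjusted p = 0.00734), PYCR1 (0.48, adjusted p = 0.00388) and ALDH18A1 (0.91, adjusted p = 0.00578) were called, and ALDH18A1 also by voom (0.67, adjusted p = 0.00982), in 1 fit of all 12 libraries and without untreated COV434 library 1 (0.64, adjusted p = 0.00227).

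CTH, the enzyme that releases cysteine, was far apart between the lines, and furthest of the members on log2(FPKM + 1) (ENSG00000116761, chr1:70411218-70439851, plus strand, on GRCh38 as are all gene positions here). Its levels were 3.13, 3.25 and 3.45 FPKM in untreated libraries 1 to 3 labelled KGN and 42.9, 63.8 and 45.4 FPKM in those labelled COV434. All COV434 libraries lay far above all KGN libraries, by 15.5-fold between the means. On log2(FPKM + 1), KGN minus COV434 was -3.57 (SE 0.16, adjusted p = 2.08e-06). CBS, which feeds CTH in the same route, ran the other way, at 15.4 to 16.7 FPKM in the KGN libraries and 2.47 to 8.58 in the COV434 libraries. The ratio of CTH to CBS was 0.187 to 0.224 in the former and 5.00 to 18.4 in the latter.

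The mitochondrial folate enzymes were split between the lines. ALDH1L2, which oxidizes formyl-folate, was at 2.86, 3.12 and 3.08 FPKM in untreated libraries labelled KGN, on 451 to 515 reads, and at 0.0709, 0.0069 and 0.0492 FPKM in those labelled COV434, on 10, 1 and 7 reads. MTHFD2 was also higher in KGN, at 84.2 ± 4.10 against 44.1 ± 10.4 FPKM, with a log2 difference of 0.94 (SE 0.17, adjusted p = 0.00227). SHMT2 was lower in KGN, at 31.3 ± 0.442 against 67.9 ± 5.56 FPKM (log2 difference -1.09, SE 0.10, adjusted p = 6.53e-05). PSPH, the last step of serine synthesis, was lower in KGN too, at 27.2 ± 0.353 against 49.3 ± 7.19 FPKM (log2 difference -0.83, adjusted p = 0.000946). The libraries of the lines did not overlap in any of these 4 genes. For PSPH the comparison is limited by a near copy, the pseudogene PSPHP1, whose transcript matched PSPH with 95.6% identity over 158 bases. It was at 0 FPKM in all KGN libraries and at 43.2 to 105.9 FPKM in the COV434 libraries, and how the authors' counting split shared reads was not given.

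With 77-39, RNA of the pathway moved in both directions in the libraries labelled KGN. The limma test, adjusted over 12671 genes, called 7 of the 10 members, 5 higher and 2 lower, where 34% of all genes were called, 17.6% higher and 16.4% lower. The median log2 fold change of the 10 was 0.19, against 0.01 over all genes tested. Treated and untreated libraries did not overlap in 9 members, 6 above and 3 below, against 49.7% of all genes. The members together took 0.220% to 0.222% of the reads in untreated and 0.248% to 0.255% in treated libraries.

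Within serine synthesis the steps differed in KGN. PSAT1, the transaminase (ENSG00000135069, chr9:78297143-78330093, plus strand), was at 259.7, 244 and 241 FPKM in untreated libraries 1 to 3 and at 323, 336 and 345 FPKM in treated libraries 1 to 3. Every treated library was above every untreated one, with a log2 fold change of 0.43 (SE 0.06, adjusted p = 0.00209). PSPH was at 27.6, 27.0 and 27.0 FPKM untreated and at 31.9, 35.4 and 34.2 FPKM treated, again without overlap. Its log2 fold change was 0.30 (SE 0.05, adjusted p = 0.00472), and its pseudogene was at 0 in these libraries. PHGDH, the entry enzyme, did not go with them. It was at 38.8, 40.7 and 40.2 FPKM untreated and at 36.2, 36.5 and 37.7 FPKM treated, with all treated libraries below the untreated ones by a small margin. The log2 fold change of -0.12 (95% interval -0.21 to -0.02) did not pass the threshold (adjusted p = 0.0746).

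The mitochondrial one-carbon steps were split in the same libraries. ALDH1L2 (ENSG00000136010, chr12:105019784-105084577, minus strand) was at 2.86, 3.12 and 3.08 FPKM untreated and at 6.27, 6.28 and 5.74 FPKM treated, a 2.02-fold ratio of the means. This was the largest response of the 10 genes in KGN, with a log2 fold change of 0.82 (SE 0.06, adjusted p = 0.000272), the 82nd highest of the 12671. MTHFD2, the dehydrogenase and cyclohydrolase of the route (ENSG00000065911, chr2:74198562-74217565, plus strand), was at 79.5, 86.8 and 86.2 FPKM untreated and at 108, 109 and 106 FPKM treated. The treated libraries were all higher, and the log2 fold change was 0.35 (SE 0.05, adjusted p = 0.00294). SHMT2, which supplies the carbon, fell. It was at 31.0, 31.1 and 31.8 FPKM untreated and at 25.6, 27.3 and 26.8 FPKM treated, with a log2 fold change of -0.23 (SE 0.04, adjusted p = 0.00737).

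Among the remaining members in KGN, ALDH18A1, the first step of proline synthesis, was at 59.4, 64.7 and 59.9 FPKM untreated and at 53.9, 55.0 and 51.5 FPKM treated. It was lower in every treated library, with a log2 fold change of -0.19 (adjusted p = 0.0278). PYCR1, the last step, was at 73.0, 73.2 and 73.2 FPKM untreated and at 72.9, 73.9 and 81.7 FPKM treated, with overlap and a 95% interval of -0.07 to 0.18 on the log2 scale. ASNS, the member with the C/EBP-ATF response element in its window, was low throughout, at 1.86, 1.79 and 2.06 FPKM untreated and at 2.35, 2.41 and 2.39 FPKM treated, on 136 to 190 reads. Its log2 fold change was 0.22 (adjusted p = 0.0438). CTH had a log2 fold change of 0.17 (adjusted p = 0.142), with 3.13 to 3.45 FPKM untreated and 3.47 to 4.30 FPKM treated.

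The calls for ASNS and ALDH18A1 in KGN are near the threshold. ASNS did not pass it without any 1 of the 6 libraries (adjusted p from 0.0562 without untreated library 3 to 0.125 without untreated library 2), and ALDH18A1 did not pass it without untreated library 2 or 3 or any treated library (adjusted p from 0.061 to 0.086). ASNS also shares 44.6% of its exon bases with AC079781.5, annotated on the same strand, which held at most 15 reads. Its pseudogene ASNSP1, with 90.5% identity over 1047 bases, was at 3.19 to 4.15 FPKM in untreated and 5.45 to 6.25 FPKM in treated libraries labelled KGN, so it moved with ASNS, and at 0 in COV434. Its part in the ASNS values was not tested. MTHFD2 shares 27.2% of its exon bases with SLC4A5 on the opposite strand (at most 24 reads) and PYCR1 14.1% with MYADML2 on its own strand (at most 52 reads).

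**Figure D2:**
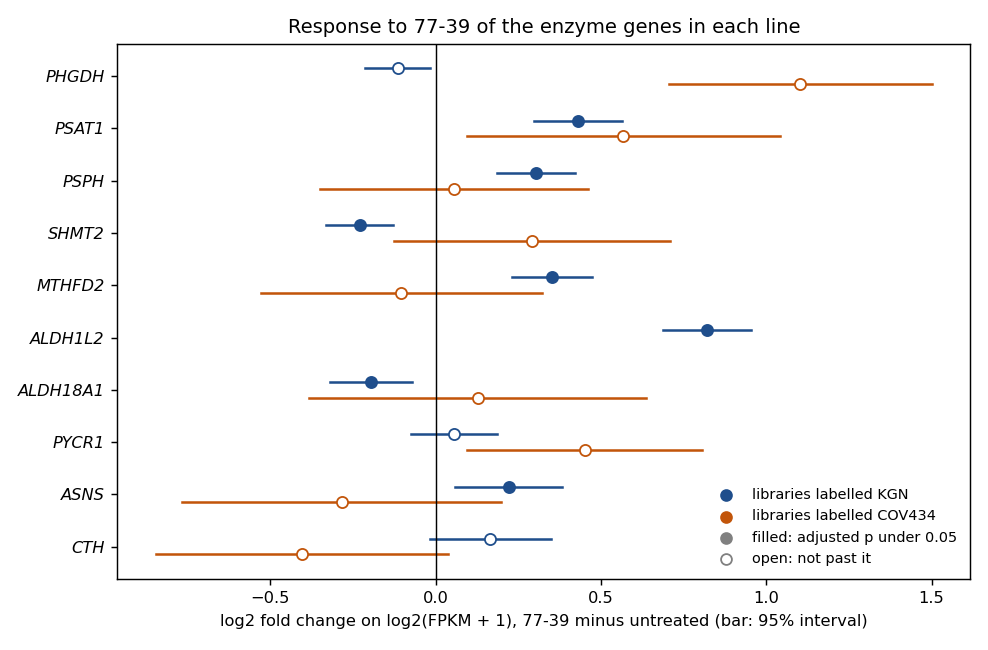
log2 fold change of each gene on log2(FPKM + 1), treated minus untreated, with its 95% interval from limma, in the libraries labelled KGN (blue) and COV434 (orange). Filled points have an adjusted p under 0.05, which holds for 7 genes in KGN and none in COV434, where ALDH1L2 was below the filter and the intervals are wider.

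In the libraries labelled COV434, PHGDH (ENSG00000092621, chr1:119648411-119744226, plus strand) stood out among the members. It was at 39.0, 40.7 and 30.1 FPKM in untreated libraries 1 to 3 and at 73.8, 75.4 and 88.9 FPKM in treated libraries 1 to 3. No treated library came near an untreated one, and the ratio of the means was 2.17. The log2 fold change was 1.10 (SE 0.17, 95% interval 0.71 to 1.5), the 40th highest of 12060 genes. Its unadjusted p was 0.000194 and its limma p adjusted over all genes was 0.0769, above the threshold of 0.05. When libraries of the same number were paired in a replicate block, its unadjusted limma p was larger, at 0.000247. The adjusted p was 0.0459, in a fit that called 87 genes against 5 without the block.

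None of the 9 members tested in COV434 had an adjusted p under 0.05, and only 5 genes in all, 0.0415%, had one. At an unadjusted p under 0.05 there were 3 members, PHGDH, PSAT1 and PYCR1, all higher, where 8% of all genes were past it, 3.52% higher and 4.49% lower. In the fit with that block, 1 of 9 members was called against 0.721% of all genes, and 4 had an unadjusted p under 0.05 against 14.4%. Libraries did not overlap in 4 of the 9 members tested, against 14.4% of all genes. The median log2 fold change of the 9 was 0.13, against -0.02 over all genes.

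PSAT1 and PYCR1 were the other tested members above their controls in every treated COV434 library. PSAT1 was at 268, 271 and 207 FPKM untreated and at 337, 323 and 453 FPKM treated, with treated library 3 well above the rest. Its log2 fold change of 0.57 (SE 0.21, adjusted p = 0.485, and unadjusted p = 0.0185 with the block) was not past the threshold. PYCR1 was at 75.0, 74.0 and 69.0 FPKM untreated and at 87.3, 107 and 106 FPKM treated, without overlap. Its log2 fold change was 0.45 (SE 0.16, adjusted p = 0.453, and unadjusted p = 0.00668 with the block). CTH lay below its controls in every treated library. It was at 42.9, 63.8 and 45.4 FPKM untreated and at 32.9, 39.3 and 40.7 FPKM treated, with a log2 fold change of -0.40 (adjusted p = 0.678, and unadjusted p = 0.0184 with the block).

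The other members tested in COV434 overlapped between the groups. SHMT2 was at 61.8 to 72.8 FPKM untreated and 69.7 to 102 FPKM treated, a log2 fold change of 0.29 with an interval of -0.13 to 0.71. MTHFD2 was at 37.4 to 56.1 FPKM untreated and 39.3 to 41.7 FPKM treated, with an interval of -0.53 to 0.32. ALDH18A1 and PSPH had log2 fold changes of 0.13 (interval -0.38 to 0.64) and 0.06 (interval -0.35 to 0.46). For these 3 genes the sign rested on single libraries. Without untreated library 2, MTHFD2 was at 0.08 and ALDH18A1 at -0.05, and PSPH was at -0.06 without untreated library 3 and at -0.05 without treated library 3. ASNS was at 1.06 to 2.45 FPKM untreated and 1.12 to 1.24 FPKM treated (log2 fold change -0.28, adjusted p = 0.842). ALDH1L2 had 1 to 10 reads in untreated and 10 to 15 reads in treated libraries, below the filter, and was not tested. On these few reads it was at 0.0069 to 0.0709 FPKM untreated and 0.0785 to 0.107 FPKM treated, without overlap.

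The difference between the responses of the lines was tested over all 12 libraries, as KGN minus COV434. It passed the threshold in 2 of 10 members, PHGDH and ALDH1L2, against 3.6% of 13127 genes, and 7 members, these 2 included, had an unadjusted p under 0.05, against 18% of all genes. ALDH1L2 passed the filter only through the KGN libraries, so its call is no measure of a difference in response. PHGDH differed by -1.22 on the log2 scale (SE 0.17, adjusted p = 0.0041), with means of 39.9 FPKM untreated and 36.8 FPKM treated in KGN and of 36.6 and 79.4 FPKM in COV434. This call held in each of 20 alternative settings, with adjusted p from 0.00224 to 0.0226. For ALDH1L2 the ratio of treated to untreated means was 2.02 in KGN and 2.19 in COV434, the latter on 1 to 15 reads per library. Its fitted difference of 0.75 (adjusted p = 0.00483) rested on the pseudocount, and it was 0.53 (adjusted p = 0.313) with a pseudocount of 0.1 and -0.47 (adjusted p = 0.797) by voom of limma on recovered reads.

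The 8 other differences did not pass the threshold. They were -0.52 for SHMT2 (adjusted p = 0.143), -0.40 for PYCR1 (adjusted p = 0.16), 0.57 for CTH (adjusted p = 0.163), 0.50 for ASNS, 0.46 for MTHFD2, -0.32 for ALDH18A1, 0.25 for PSPH and -0.14 for PSAT1, the last with a 95% interval of -0.60 to 0.32. PSAT1 was thus above its controls in all treated libraries of both lines, and a difference in its response was not detectable. Without treated COV434 library 1, SHMT2 (-0.65, adjusted p = 0.0315) and PYCR1 (-0.49, adjusted p = 0.0364) passed, and without untreated COV434 library 2, ASNS passed (0.69, adjusted p = 0.0437). Treated COV434 library 1 also had the highest share of reads on mitochondrially encoded genes, 13.5% against 7.30% to 9.63% in the other 11, and the part of this in the results was not tested.

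PSAT1 and PHGDH are consecutive steps, and any ratio of FPKM values within a library is free of the library's own scale. PSAT1 to PHGDH was 6.70, 5.98 and 5.99 in untreated and 8.94, 9.22 and 9.16 in treated libraries labelled KGN. In COV434 it was 6.88, 6.68 and 6.89 untreated and 4.57, 4.28 and 5.10 treated. The ratio thus lay between 5.98 and 6.89 in all 6 untreated libraries, higher in every treated KGN library and lower in every treated COV434 library. The ratios restate the same FPKM and were given no test.

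Ratios of mitochondrial to cytosolic enzymes were higher after treatment in KGN. SHMT2 to SHMT1 was 5.73 to 5.88 untreated and 8.39 to 9.72 treated. SHMT2 itself fell, and SHMT1 was at 5.27 to 5.42 FPKM untreated and 2.75 to 3.25 FPKM treated. MTHFD2 to MTHFD1 was 5.41 to 5.72 untreated and 8.75 to 9.04 treated. PYCR1 to PYCR3, a pair of proline enzymes of which PYCR3 is cytosolic, was 13.4 to 14.2 untreated and 20.5 to 22.7 treated. In COV434, untreated against treated, SHMT2 to SHMT1 was 3.77 to 4.70 against 4.73 to 5.09 and PYCR1 to PYCR3 was 5.64 to 6.08 against 6.44 to 8.38, both without overlap. MTHFD2 to MTHFD1 was 2.17 to 3.57 against 3.06 to 3.74, with overlap.

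**Figure D3:**
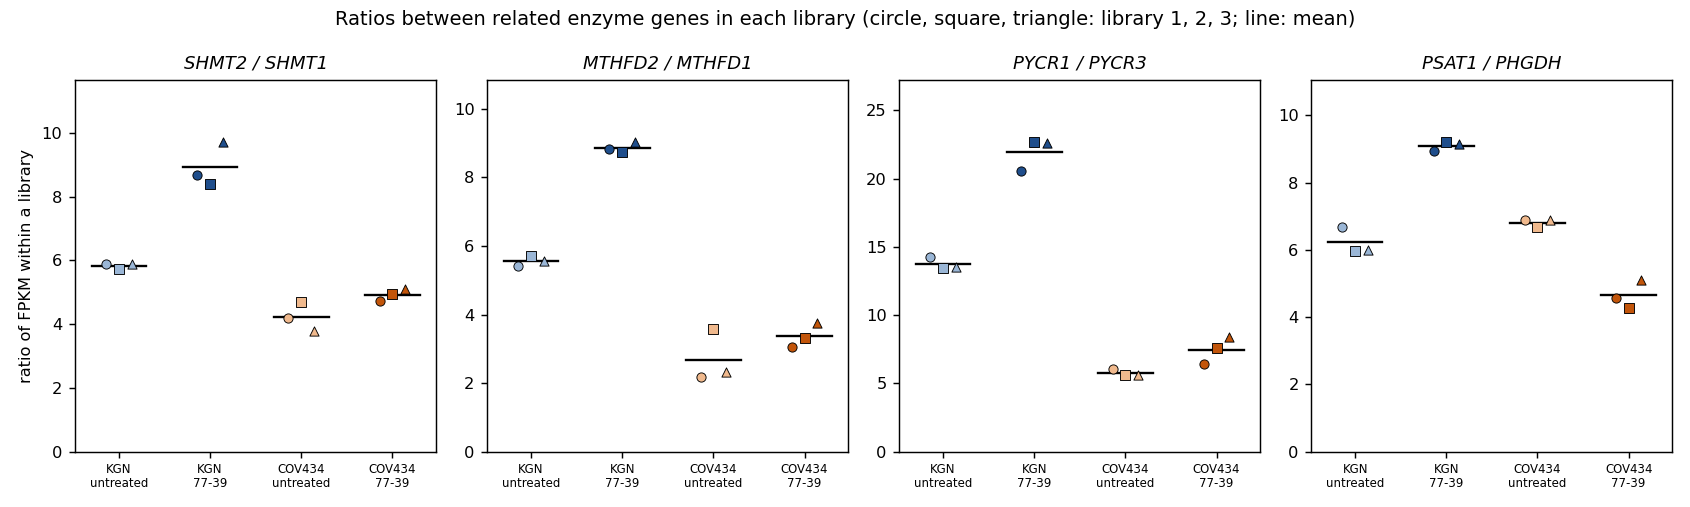
Ratio of the FPKM of related enzymes within each library, on linear axes from 0, with a symbol per library and a line at the group mean. All 4 ratios were higher in every treated library labelled KGN than in its controls, and PSAT1 to PHGDH was lower in every treated library labelled COV434.

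Other genes of the pathways were counted by lists, to be read against the 34% of all genes called in KGN, 17.6% higher and 16.4% lower. In KGN, cytosolic one-carbon and folate genes had 1 of 15 tested genes higher and 6 lower, 46.7% called, with a median log2 fold change of -0.07 against 0.01 over all genes. Among the lower genes were SHMT1 (log2 fold change -0.68), TYMS, which makes thymidylate (-0.73), MTHFD1 (-0.30), GGH (-0.27) and the purine enzyme PAICS (-0.23). All 6 proliferation genes fell in the same libraries, with log2 fold changes from -1.15 for MCM5 to -0.48 for PCNA.

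Serine and glycine genes in KGN, members included, had 3 of 10 higher and 3 lower (60.0% called), and the mitochondrial one-carbon list 2 of 7 higher and 1 lower (42.9%, nearer to the share of all genes). Outside the members these were GCSH, the carrier protein of glycine cleavage (0.41), SHMT1, and GCAT, which breaks down threonine (-0.45). MTHFD1L, which releases formate from mitochondria, had a log2 fold change of 0.05 (adjusted p = 0.594). Asparagine, aspartate and glutamate genes had 3 of 8 higher and 1 lower (50% called). GOT1, the cytosolic aspartate transaminase, was at 54.7 to 58.5 FPKM untreated and 76.3 to 77.7 FPKM treated (log2 fold change 0.44), while ASRGL1, an asparaginase, fell by 0.45 on that scale.

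The proline list in KGN had 2 of 7 higher and 2 lower (57.1%). PYCR3 fell by 0.50, and OAT (0.32), which links ornithine to proline, and PEPD (0.26), which frees proline from dipeptides, rose. Methionine and transsulfuration genes had 2 of 11 higher and 1 lower, 27.3% called and thus under the share of all genes. These were GCLM, a subunit of glutathione synthesis (0.51), MAT1A (0.34), which was at 0.826 to 1.52 FPKM, and MPST (-0.42). Over all 46 tested list genes other than members and regulators, 39.1% were called, against 34% of all genes.

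In COV434 no gene of these lists was called, as was so for nearly all genes. Under the block 1 was, PHGDH. Values near the threshold were those of GCLM (0.47, unadjusted p = 0.00797) and MTHFD1 (-0.44, unadjusted p = 0.0138), each with an adjusted p above 0.3. For the difference between the lines, 2 of the 46 other genes passed, 4.35% against 3.6% of all genes, so close to the common share. These were SHMT1 (-0.74, adjusted p = 0.0225) and PYCR3 (-0.59, adjusted p = 0.0157). SHMT1 was at 15.5 to 16.5 FPKM in untreated and 14.7 to 19.97 FPKM in treated libraries labelled COV434, with overlap.

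**Figure D4:**
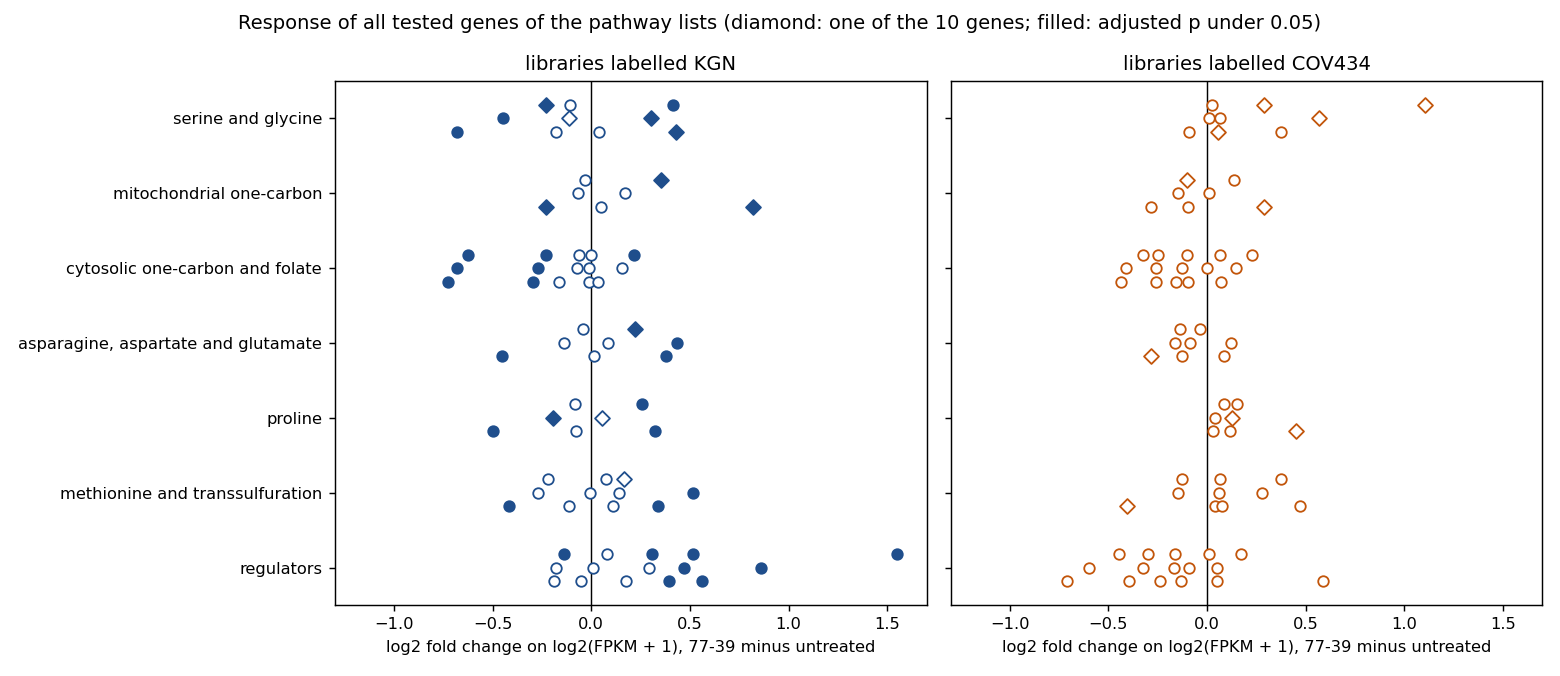
log2 fold change of every tested gene of the 7 lists, treated minus untreated, in the libraries labelled KGN (left) and COV434 (right), with the 10 enzyme genes as diamonds and genes with an adjusted p under 0.05 filled. In KGN the cytosolic folate list had 6 lower against 1 higher and the regulators 7 higher against 1 lower, where 17.6% of all genes were higher and 16.4% lower, and in COV434 no point is filled.

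Regulators of the amino acid and stress responses were read beside the enzymes. ATF4, whose activity is known to be set largely by translation, was at 258 to 277 FPKM in untreated and 224 to 245 FPKM in treated libraries labelled KGN, a log2 difference of -0.18 (adjusted p = 0.0541). Of 15 regulators tested in KGN, 7 were higher and 1 lower, 53.3% called against 34% of all genes, with a median log2 fold change of 0.29. ATF3 was at 8.21 to 8.65 FPKM untreated and 26.2 to 27.0 FPKM treated (log2 fold change 1.55, adjusted p = 1.2e-05). DDIT3, which encodes CHOP, was at 53.3 to 54.7 FPKM untreated and 97.8 to 101 FPKM treated (0.86), and EIF2AK3, the kinase also called PERK, rose by 0.56. The others that rose were SESN2 (0.52), CHAC1 (0.47), CEBPG (0.39) and EIF2AK2 (0.31), and ATF5 was lower (-0.14, adjusted p = 0.0492).

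In COV434 no regulator was called. ATF4 was at 283 to 364 FPKM untreated and 258 to 396 FPKM treated, and CHAC1 was at 31.4 to 40.0 FPKM untreated and 13.4 to 29.2 FPKM treated (log2 fold change -0.71, adjusted p = 0.523). At an unadjusted limma p under 0.05, 1 of 16 regulators was higher and 2 were lower, against 3.52% and 4.49% of all genes. EIF2AK2 was higher, at 15.7 to 17.5 FPKM untreated and 19.7 to 32.6 FPKM treated (0.59, adjusted p = 0.4245). CHAC1 and NFE2L2 (-0.60, adjusted p = 0.523) were lower. The response differed between the lines for 3 of 16 regulators, 18.8% against 3.6% of all genes. These were ATF3 (1.79, adjusted p = 0.000377), EIF2AK3 (0.86, adjusted p = 0.0177) and SESN2 (0.91, adjusted p = 0.0212), each toward higher in KGN.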

How the data were processed

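Total RNA of untreated and 77-39-treated cells was sequenced in 12 libraries, 3 for each of 4 groups taken from the sample titles. The authors deposited 1 table of FPKM and gene lengths for 58735 genes. All gene IDs and positions matched release 29 of GENCODE (GRCh38), whereas the submitters' processing notes name HISAT2 2.0.5 with the mouse builds mm10 and mm8. The counting tool and its use of strand were not given in the sources used here. Whole reads were recovered from FPKM and gene length for 100% of values, within 0.05 of a whole number, and gave 15547851 to 18280415 reads per library. A floor of 3 reads on a gene of 1 kb was 0.152 to 0.200 FPKM, for counting error only.

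Each line was fitted alone with limma 3.58.1 (lmFit, and eBayes with a trend, two-sided) in R 4.3.3 on log2(FPKM + 1), for genes averaging 1 FPKM or more, and p-values were adjusted by Benjamini-Hochberg over all genes tested. A gene was called at an adjusted p under 0.05. Fold changes on this scale understate those of low genes. The difference between the lines was the interaction over 12 libraries, and the untreated lines were compared over 6. These comparisons share libraries. Same-numbered COV434 libraries deviated together (correlations of 0.166 to 0.474 over 12060 genes). The blocked value is therefore given where it changes a call, and for COV434 members with an unadjusted p under 0.05 in the blocked fit. Different-numbered COV434 pairs were at -0.469 to 0.154. The highest, untreated 3 with treated 2, was close to the 0.166 of library 3, so the pairing is weak there. Same-numbered KGN libraries did not deviate together (-0.019 to -0.016 over 12671 genes). The replicate numbers come from the titles. The members, the 7 gene lists and the marker lists were chosen with earlier results of these data known. Members are named throughout, and other list genes where they were called, were isozymes of a member or were near a call. The values of some list genes are not reported here. ATF4, CHAC1, EIF2AK2 and NFE2L2 in COV434 were named after their values were seen. Promoter motifs were searched as letters, pseudogene transcripts were aligned with blastn 2.17.0, and figures used matplotlib 3.10.9.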

Additional observations from a re-analysis of the deposited data

Results flagged for a closer look

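The response of PHGDH to 77-39 differed between the lines by -1.22 on the log2 scale, KGN minus COV434, by the interaction test of limma (adjusted p = 0.0041). PHGDH was higher in 3 of 3 treated libraries labelled COV434 and lower in 3 of 3 labelled KGN.

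For ALDH1L2 the same test gave 0.752 (adjusted p = 0.00483), but the gene passed the filter only through the libraries labelled KGN. Its treated to untreated ratio of means was 2.02 in KGN and 2.19 in COV434, where each library held 1 to 15 reads, and voom gave -0.471 (adjusted p = 0.797), so no difference in response is shown.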

How the results depend on the processing

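PSAT1, PSPH, SHMT2 and MTHFD2 kept their calls in the libraries labelled KGN in 15 of 16 alternatives, ALDH1L2 in 16, ALDH18A1 in 7 and ASNS in 3. With 1 fit of all 12 libraries, which pools the wider spread of COV434, KGN had 1015 genes called, with 1 member higher and 0 lower, and COV434 had 480, with 2 members higher. In KGN, 1 member was lower with no filter, with quantile normalization and with the replicate block. Leaving out single libraries gave 2751 to 4128 called genes and 1 to 2 members lower in KGN.

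In COV434, where 5 genes were called, 3 were with a pseudocount of 0.1 or a filter at 0.1 FPKM, 1 with no filter, 25 by voom, 87 with the replicate block, 85 with the block and median-ratio scaling (chosen after seeing the data) and 37 among protein-coding genes. PHGDH was the 1 member called in the last 3, its log2 fold change was 0.972 to 1.18 over 16 alternatives, and no left-out library brought a call. Leaving out single COV434 libraries gave 1 to 7 called genes, and log2 fold changes of -0.209 to 0.0785 for MTHFD2, -0.0459 to 0.314 for ALDH18A1 and -0.057 to 0.151 for PSPH. The block changed no other member's call in COV434. In KGN, where the numbers do not pair the libraries, it left ASNS (adjusted p = 0.0995) and ALDH18A1 (adjusted p = 0.0526) uncalled.

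For the difference between the lines, 472 genes were called, 264 by voom and 126 to 975 with single libraries left out, with 1 to 2 members higher and 1 to 3 lower. With a pseudocount of 0.1 and by voom 0 members were higher, and by voom ALDH1L2 was at -0.471. PSAT1 ranged from -0.228 to 0.0163 with single libraries left out. Between untreated lines, PSAT1 was at -0.0012 with median-ratio scaling and from -0.121 to 0.0724 with single libraries left out, ASNS from -0.0555 to 0.318 and PYCR1 from -0.0263 to 0.033. Over all 14 alternatives PSAT1 reached 0.396 and ASNS 0.441, and neither was called in any (lowest limma adjusted p of 0.0959 and 0.0593). Voom moved the median of all genes there by 0.20 and quantile normalization by 0.11, and the latter gave 5 members higher, PHGDH, PYCR1 and ALDH18A1 added. Voom scaled by recovered reads, 15920486 to 18135160 in untreated KGN and 17701495 to 17875989 in untreated COV434. The library size within the FPKM was 17084939 to 19681248 and 16572406 to 16999153. It was above the recovered reads in each of these KGN libraries and below them in each of these COV434 libraries. The cause was not tested in any of these cases. Depth limits ASNS in all libraries and ALDH1L2 in COV434.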
